A study of Mus musculus with 11 samples.

Results

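The hormone receptors of the luminal mammary epithelium and the genes that regulate or serve them were examined in premalignant lesions of the mouse mammary gland. The set holds 9 genes, chosen by name: the receptors Esr1, Pgr and Prlr, the signal transducers Stat5a and Stat5b, the transcription factors Elf5 and Gata3, the estrogen receptor coactivator Cited1 and the surface mucin Muc1. The choice was made with earlier results of these data known, from a supplementary table of the study that holds Gata3 and Cited1. Counts of members given below beside shares of all probe sets are therefore descriptions only. Every probe set annotated to a single gene of the set was used, which gave 12 of the 12422 probe sets tested, for 8 of 8251 genes. Esr1 was represented by 4 probe sets, Stat5a by 2 and the others by 1 each. No probe set annotated to Prlr alone was among them, so the prolactin receptor was not analysed here.

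The arrays compared PN1a, a lesion line with high tumor-forming potential, with PN1b, a line with low potential. Both lines descend from p53-null (Trp53-/-, Balb/c) mammary epithelium, came from outgrowths in opposite glands of a single mouse, and had passed through more than 10 generations of transplantation. Tissue was grown in cleared fat pads of wildtype Balb/c females that were 3 weeks old at transplantation, and glands were collected 8 weeks later, as 5 samples of PN1a and 6 of PN1b. Each line thus stands for 1 outgrowth, the deletion of p53 was shared by both groups, and RNA of the whole gland included the stroma of the wildtype host. Nothing in the sources used here said that the samples came from separate animals, so the p-values rest on the spread among the samples as given, which may be technical. In RNA of whole glands, fewer cells of a type and less RNA per cell cannot be told apart.

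Estrogen receptor alpha (Esr1) and the progesterone receptor (Pgr) are ligand-activated transcription factors found in a subset of luminal cells, and estrogen raises transcription of Pgr in many tissues. Prolactin acts through its receptor and the kinase JAK2 on STAT5A and STAT5B, which enter the nucleus and drive alveolar differentiation and milk protein genes. GATA3 maintains luminal cells, ELF5 directs the alveolar lineage, CITED1 binds the estrogen receptor and the coactivators CBP and p300, and MUC1 coats the apical surface of luminal cells.

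Promoter windows were read from RefSeq on build GRCm38.p6, from 250 bases before to 50 bases after each annotated start, and 17 windows were found for the 9 genes. The 3 printed below belong to Gata3, Cited1 and Muc1, the members with the largest fold changes and with their highest intensities in the same PN1a samples, and show what each gene carries in front of its start. They are written 5′ to 3′ on the strand of the gene, and capitals mark a match to a motif that was searched. For Cited1, which has 3 annotated starts, the window with a match is shown.
Gata3 (chr2:9878551-9878850, minus strand): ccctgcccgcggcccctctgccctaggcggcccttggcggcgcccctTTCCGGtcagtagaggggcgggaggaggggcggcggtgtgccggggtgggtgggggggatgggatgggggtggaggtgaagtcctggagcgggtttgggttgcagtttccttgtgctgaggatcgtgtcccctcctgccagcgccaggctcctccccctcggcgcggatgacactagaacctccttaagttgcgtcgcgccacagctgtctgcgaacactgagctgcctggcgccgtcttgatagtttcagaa
Cited1 (chrX:102250727-102251026, minus strand): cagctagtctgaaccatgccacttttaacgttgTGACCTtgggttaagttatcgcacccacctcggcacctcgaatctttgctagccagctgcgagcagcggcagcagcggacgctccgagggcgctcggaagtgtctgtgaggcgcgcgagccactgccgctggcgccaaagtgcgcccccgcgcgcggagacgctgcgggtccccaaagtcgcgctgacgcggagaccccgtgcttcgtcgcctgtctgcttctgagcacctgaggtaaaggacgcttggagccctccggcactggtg
Muc1 (chr3:89228806-89229105, plus strand): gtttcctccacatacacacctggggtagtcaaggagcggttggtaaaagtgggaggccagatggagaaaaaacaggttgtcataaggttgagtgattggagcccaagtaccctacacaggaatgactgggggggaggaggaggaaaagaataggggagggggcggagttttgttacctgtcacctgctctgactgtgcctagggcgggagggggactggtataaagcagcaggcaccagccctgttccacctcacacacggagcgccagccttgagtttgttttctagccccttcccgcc

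The capitals in Gata3 are an ETS site, CCGGAA, read on the opposite strand and starting 203 bases before the start. The capitals in Cited1 are AGGTCA, the arm of an estrogen response element, also on the opposite strand, 217 bases before the start. No searched motif was found in the Muc1 window. All motifs were searched on both strands. The full estrogen response element, which holds 5 of the letters of its arm in each direction with any bases between, was in 0 of the 17 windows and in 0.07% of all 32851 windows. The arm was in 4 of the 17, of Cited1, Stat5a and Stat5b, and in 16.3% of all. The progesterone or glucocorticoid arm TGTTCT was in 1 window, of Prlr, against 19.0% of all. A STAT site, TTCNNNGAA, was in 2 windows, of Esr1 and Prlr, against 8.3% of all. The ETS site was in 2, of Gata3 and Stat5b, against 14.9%, and the GATA site AGATAA in 0, against 11.2%. These matches are a description of the letters in the windows.

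Intensities are the deposited linear values, on which the lowest value was 1 and the highest 1938. The tests used log2 of them in limma, two-sided, with Benjamini-Hochberg adjustment over all 12422 probe sets, and a probe set was called at an adjusted p under 0.05 with a fold change of at least 1.5. Array number limits the precision. Samples PN1a 1 and PN1a 2, the 2 PN1a samples whose titles begin with a number rather than a letter, stood apart. The 3′ probe set of 18S RNA read 167 and 260 in them against 5.39 to 32.7 in the other 9 samples, and the immediate early gene Fos read 16.2 and 14.6 against 246 to 626. The luminal keratin Krt8 read 52.7 and 187 there against 298 to 443 in the other PN1a samples and 307 to 657 in PN1b. Some results named below are given with and without these samples. Values given once are those with all samples. The size or sign of some of them, such as Myc, Csn1s1, Csn2 and Erbb3, also turned on PN1a 1 and PN1a 2.

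Of the 12 probe sets 1 was called, that of Cited1, which was higher in PN1a, 0 were called lower and 11 were not called. Over all probe sets 0.869% were called higher in PN1a and 1.62% lower. The log2 fold change was above 0 for 9 of the 12 and below 0 for 3, with a median of 0.15 against -0.01 over all probe sets. An unadjusted p under 0.05 was reached by 4 of the 12, of Cited1, Gata3, Muc1 and Esr1, against 18.9% of all probe sets. In no member did every PN1a sample lie on the same side of every PN1b sample, while 1.58% of all probe sets had every PN1a sample above every PN1b sample and 2.38% had every one below.

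**Figure D1:**
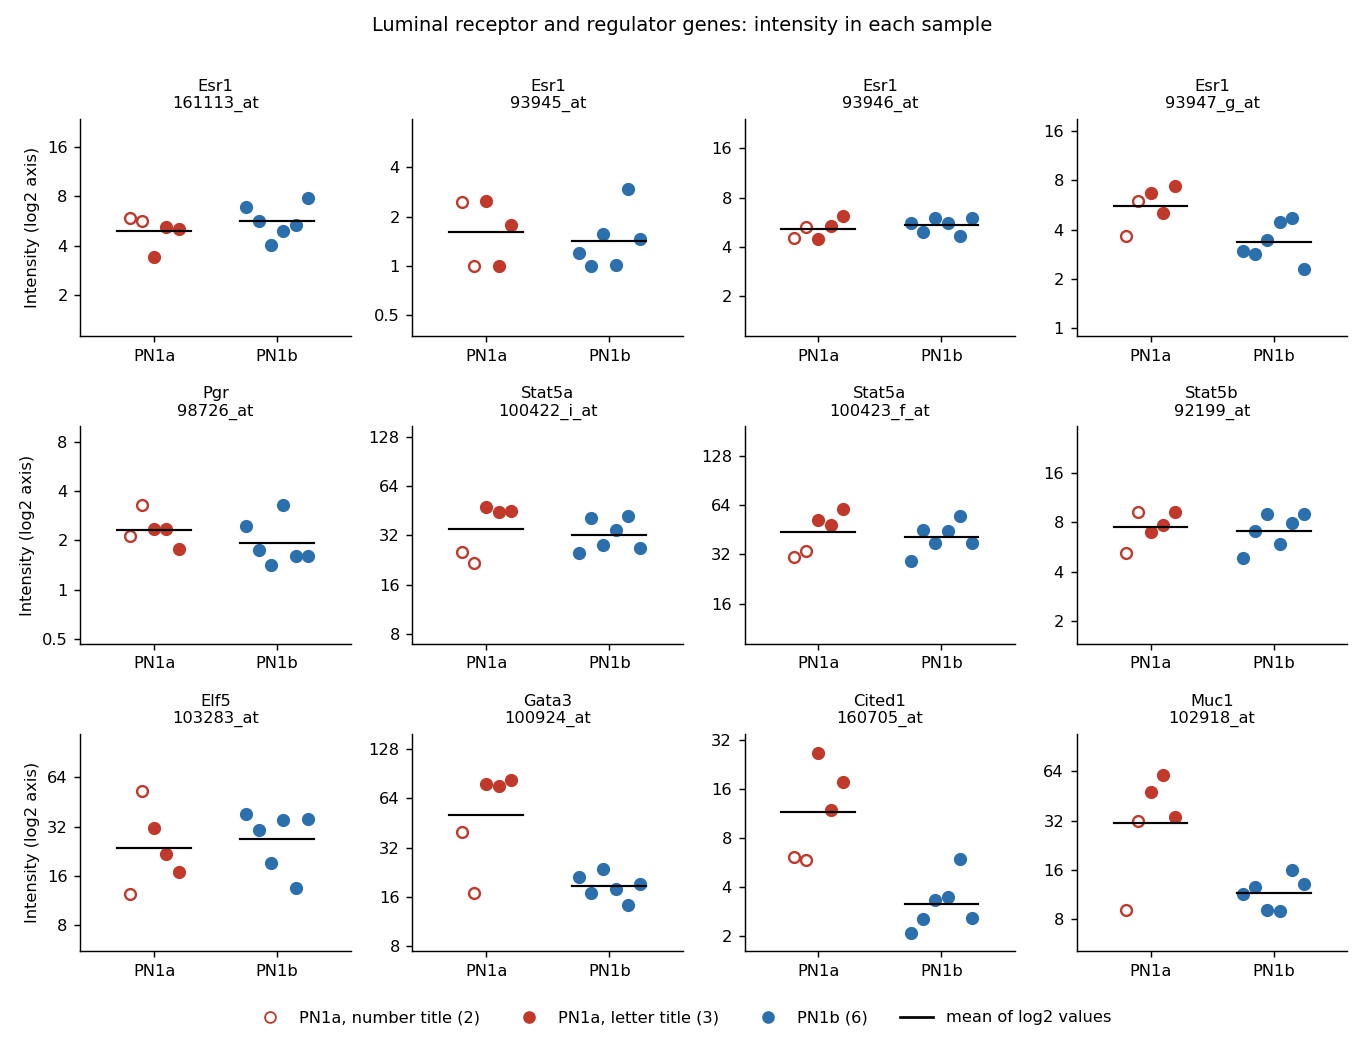
Deposited intensity (log2 axis, a range of its own in each panel) of the 12 probe sets in each of 5 PN1a samples (red, open for those with a number in the title, filled for those with a letter) and 6 PN1b samples (blue), with the mean of log2 values as a line. The filled PN1a samples lie above every PN1b sample for Gata3, Cited1 and Muc1, and the groups overlap in every panel.

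The receptors came first. For Esr1, probe set 161113_at read 5.90, 5.66, 3.41, 5.17 and 5.03 in PN1a 1 to PN1a 5, and from 4.06 to 7.84 with a median of 5.49 in PN1b. The PN1a values lay within or just below those of PN1b, and the log2 fold change was -0.19 (SE 0.21, 95% interval -0.66 to 0.27, limma adjusted p = 0.683). Probe set 93946_at read 4.50 to 6.19 in PN1a and 4.66 to 6.06 in PN1b, with a log2 fold change of -0.09 (interval -0.44 to 0.27, limma adjusted p = 0.818). These 2 probe sets gave no difference that passed, and their intervals leave room for changes of up to 0.66 on the log2 scale.

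The other 2 probe sets of Esr1 lay on the other side of 0. Probe set 93947_g_at read 3.68, 6.02, 6.68, 5.06 and 7.41 in PN1a 1 to PN1a 5, and from 2.31 to 4.69 with a median of 3.2 in PN1b. Here 4 of the 5 PN1a samples were above every PN1b sample, and PN1a 1 lay within their range. Its fold change was 1.68 (log2 0.75, SE 0.24, interval 0.23 to 1.26), with an unadjusted limma p of 0.00816 and an adjusted p of 0.114. The ending _g_at marks a probe set whose probes can also match related transcripts. Probe set 93945_at was at the lowest deposited value in 3 samples and read at most 2.95 in any, with a log2 fold change of 0.18 (interval -0.54 to 0.91, limma adjusted p = 0.810). The 4 probe sets of Esr1 therefore disagreed in sign, 2 below 0 and 2 above, and their mean gave a log2 fold change of 0.16 (limma adjusted p = 0.590).

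Pgr, the progesterone receptor, read 2.11, 3.29, 2.35, 2.33 and 1.78 in PN1a 1 to PN1a 5. In PN1b it ran from 1.41 to 3.27 with a median of 1.68. The groups covered nearly the same range, and the log2 fold change was 0.27 (SE 0.24, interval -0.26 to 0.80, limma adjusted p = 0.606). Every intensity of Esr1 and Pgr was between 1 and 7.84, below 8.57, the lowest median intensity of a sample. Whether they exceeded the background of the array was not tested. The study describes lesions of both lines as positive for both receptors, with tumor formation dependent on ovarian hormones. Receptor protein was not measured here, so these low RNA intensities were not set against that status. Among other genes measured by a single-gene probe set, those most like Esr1 161113_at over the 11 samples were Sugp2 (Pearson r 0.936), Polg2 (0.881), Uvrag (0.880), Col18a1 (0.880) and Chmp7 (0.863), and those most like Pgr were Usp4 (0.892), Rxrg (0.873), Ctf1 (0.845), Kcnj5 (0.824) and Col4a3 (0.818). These values describe 11 arrays that share 2 lines and are given with no test.

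Downstream of the prolactin receptor, the STAT5 genes did not pass. Stat5a 100422_i_at read 25.3, 21.7, 47.5, 44.6 and 45.3 in PN1a 1 to PN1a 5, and from 24.8 to 41.9 with a median of 31.3 in PN1b. The letter-titled PN1a samples were the highest of all 11, and the number-titled samples were near or below the low end of PN1b, so the groups overlapped. The log2 fold change was 0.12 (SE 0.26, interval -0.43 to 0.67, limma adjusted p = 0.836), and 0.51 without PN1a 1 and PN1a 2. The probe set 100423_f_at, whose ending marks probes that can match a family of similar sequences, read 30.9 to 60.1 in PN1a and 29.2 to 54.9 in PN1b, with a log2 fold change of 0.10 (interval -0.39 to 0.59, limma adjusted p = 0.849). Stat5b ran from 5.21 to 9.25 over the PN1a samples and from 4.86 to 9.06 over the PN1b samples, and its log2 fold change was 0.08 (interval -0.40 to 0.56, limma adjusted p = 0.885). The coding sequences of Stat5a and Stat5b are closely alike, and how far their probe sets share signal was not tested.

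Elf5, the alveolar transcription factor, had its highest and its lowest intensity in the same line. It read 12.4, 52.7, 31.6, 21.9 and 17.0 in PN1a 1 to PN1a 5, and from 13.5 to 38.1 with a median of 32.9 in PN1b. The samples that stood apart, PN1a 1 and PN1a 2, were the lowest and the highest of all 11. The log2 fold change was -0.18 (SE 0.38, interval -0.99 to 0.63, limma adjusted p = 0.839), and -0.25 without these samples (adjusted p = 0.785). A change of about 2-fold in the downward direction lay inside the first interval.

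Gata3, Cited1 and Muc1 had the largest fold changes, and in each of them 4 of the 5 PN1a samples were above every PN1b sample. Cited1 read 6.06, 5.82, 26.7, 11.8 and 17.6 in PN1a 1 to PN1a 5, and from 2.08 to 5.94 with a median of 2.93 in PN1b. The only overlap was PN1a 2 against the highest PN1b sample. All PN1b values and those of PN1a 1 and PN1a 2 were below 8.57, the lowest median intensity of a sample. Whether they exceeded the background of the array was not tested. On the log2 scale the mean of PN1a was 3.52 ± 0.96 (SD, n = 5) and that of PN1b 1.64 ± 0.53 (SD, n = 6), a fold change of 3.67 (log2 1.88, SE 0.40, interval 1.02 to 2.73, limma adjusted p = 0.0282). With all samples on log2(value + 16) the log2 fold change was 0.57 (limma adjusted p = 0.0737). Without PN1a 1 and PN1a 2, on log2 of the values as deposited, it was 2.51 (adjusted p = 0.00367). The call was lost when any of PN1a 3, PN1a 4, PN1b 1, PN1b 2, PN1b 3 and PN1b 4 was left out, with limma adjusted p-values of 0.0589, 0.0561, 0.0746, 0.0575, 0.0638 and 0.0626.

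Gata3 read 39.9, 16.8, 77.7, 75.6 and 82.7 in PN1a 1 to PN1a 5, and from 14.2 to 23.8 with a median of 18.5 in PN1b. The letter-titled samples lay close together and far above PN1b, PN1a 1 lay between, and PN1a 2 was inside the range of PN1b. The mean log2 intensity was 5.66 ± 0.98 (SD, n = 5) against 4.22 ± 0.26 (SD, n = 6), a fold change of 2.71 (log2 1.44, SE 0.37, interval 0.65 to 2.23), and the limma adjusted p of 0.0561 missed the threshold. It was called when PN1a 2 was left out (log2 1.84, adjusted p = 0.00210) and when PN1a 1 and PN1a 2 both were (log2 2.08, adjusted p = 0.000301).

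Muc1 read 9.19, 31.8, 48.2, 61.0 and 33.8 in PN1a 1 to PN1a 5, and from 9.06 to 16 with a median of 12 in PN1b. Here PN1a 2 was with the high samples and PN1a 1 was at the low end of PN1b, the reverse of Gata3. The mean log2 intensity was 4.96 ± 1.05 (SD, n = 5) against 3.54 ± 0.32 (SD, n = 6), a fold change of 2.67 (log2 1.41, SE 0.39, interval 0.57 to 2.26, limma adjusted p = 0.0736). Muc1 was called without PN1a 1 (log2 1.85, adjusted p = 0.00201) and without PN1a 1 and PN1a 2 (log2 1.99, adjusted p = 0.00211). Over the 5 PN1a samples the spread of each of these 3 genes was wider than over PN1b. The titles of 4 PN1b samples hold a range of numbers, and whether such a sample pools several glands, which would narrow the spread, is not stated in the sources used here.

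The letter-titled PN1a samples exceeded PN1b by 5.68-fold in Cited1, 4.23-fold in Gata3 and 3.97-fold in Muc1. The number-titled samples exceeded it by 1.91-fold, 1.39-fold and 1.47-fold. The letter-titled samples were on average above the number-titled ones in 9 of the 12 member probe sets. No share over all probe sets was had for this count, and 4 of the 12 are of Esr1 and 2 of Stat5a. It is therefore not read as a trait of the members. Every letter-titled sample was above every PN1b sample in 5 of the 12, those of Cited1, Gata3, Muc1, Esr1 93947_g_at and Stat5a 100422_i_at, against 3.96% of all probe sets. With 2 samples against 3, this difference was given no test. Over the 11 samples Pearson r between members was 0.87 for Cited1 with Esr1 93947_g_at, 0.83 for Gata3 with Cited1, 0.81 for Cited1 with Muc1 and 0.68 for Gata3 with Muc1, as a description of samples that fall in 2 lines. The other genes most like Cited1 were Saa2 (0.937), Tax1bp1 (0.936), Saa-ps (0.929), Pik3ca (0.913) and Ralb (0.904), of which Saa2 encodes an acute phase protein and Pik3ca the catalytic subunit of a lipid kinase.

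**Figure D2:**
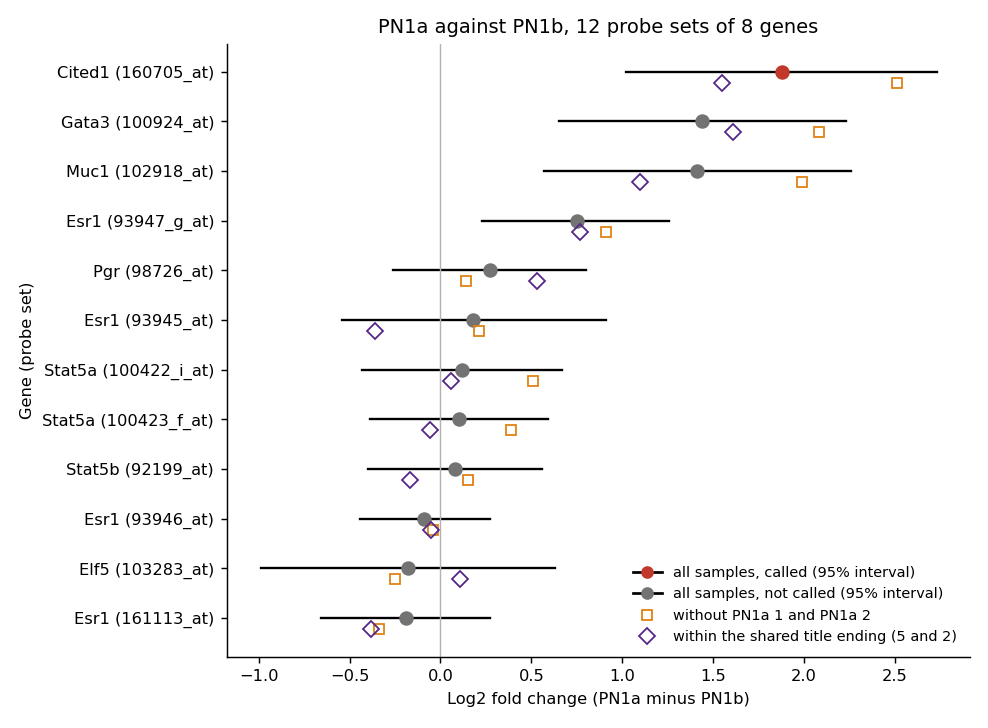
Log2 fold change (PN1a minus PN1b) of the 12 probe sets with its 95% interval from limma over 11 samples (circles, red where called), without PN1a 1 and PN1a 2 (squares), and from the samples with the title ending that both groups hold (diamonds, 5 PN1a and 2 PN1b). Cited1, Gata3, Muc1 and Esr1 93947_g_at have intervals above 0, and their squares lie at 2.51, 2.08, 1.99 and 0.91.

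Sample titles end in 3 different sets of characters, and no source used here says what they mean. All 5 PN1a samples and PN1b 5 and PN1b 6 share an ending, PN1b 2 has another and PN1b 1, PN1b 3 and PN1b 4 the remaining one. Within the shared ending, with 5 PN1a and 2 PN1b samples, the log2 fold change was 1.55 for Cited1 (limma adjusted p = 0.676), 1.61 for Gata3 and 1.10 for Muc1, and with the ending as a block Cited1 was again 1.55 (adjusted p = 0.458). None of the 3 was called in either fit. Over all probe sets 0.145% were called in either direction within the shared ending, and 0.250% with the block.

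Since whole glands were used, the luminal keratins were read in the same samples. Krt8 read 52.7, 187, 347, 443 and 298 in PN1a 1 to PN1a 5 and 307 to 657 in PN1b (log2 fold change -1.25, SE 0.45, limma adjusted p = 0.151). Krt18 read 73.0, 211, 452, 592 and 653 in PN1a and 639 to 936 in PN1b (-1.40, SE 0.46, limma adjusted p = 0.124). Neither passed, and the lowest samples were again PN1a 1 and PN1a 2. Without them the log2 fold changes were -0.51 for Krt8 (limma adjusted p = 0.364) and -0.53 for Krt18 (0.227). The other probe set of Krt18, which was not used for the scale below, was at -0.33 with all samples (limma adjusted p = 0.665). Set against the mean log2 intensity of Krt8 and Krt18 in the same sample, Gata3 was at -3.56 to -0.64 in PN1a and -5.45 to -4.53 in PN1b, Cited1 at -5.44 to -3.36 and -8.51 to -6.71, and Muc1 at -3.70 to -2.65 and -6.28 to -5.08. On this scale the groups did not overlap for 6 of the 12 member probe sets, which also included Esr1 93947_g_at and both of Stat5a, against 12.7% of all probe sets. Subtracting keratins whose log2 fold changes were -1.25 and -1.40 moved all probe sets upward, and 38.4% of them were called higher on this scale. The SD of PN1a relative to the keratins was 1.07 for Gata3, 0.86 for Cited1 and 0.41 for Muc1, against 0.34, 0.61 and 0.50 in PN1b.

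**Figure D3:**
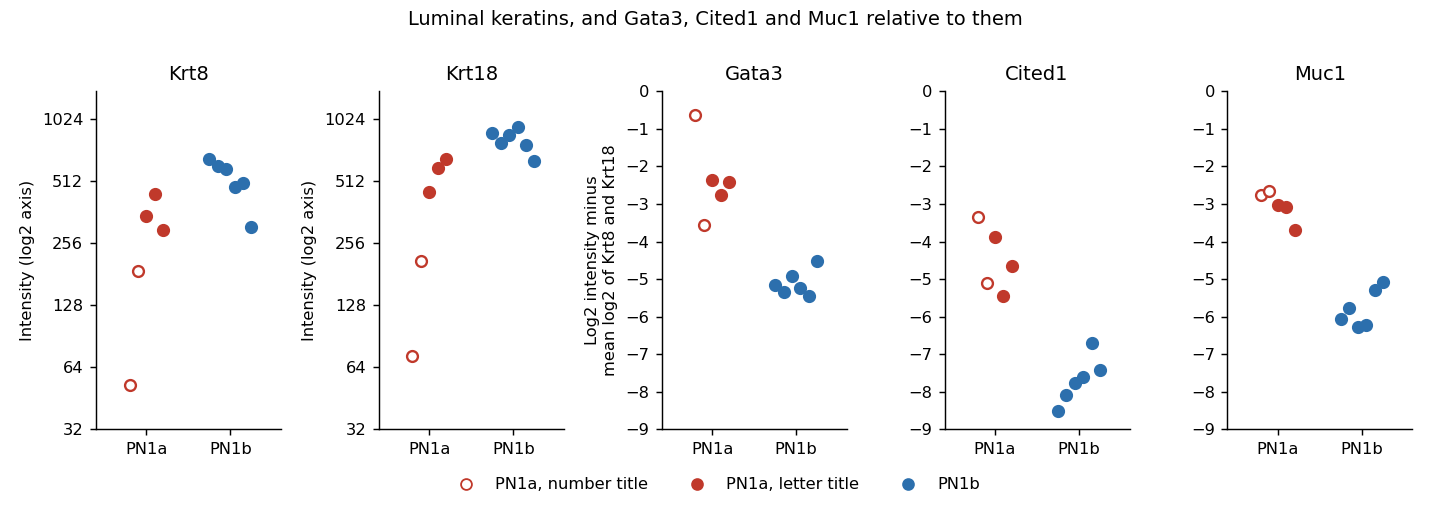
Intensity of Krt8 and Krt18 (log2 axis), and log2 intensity of Gata3, Cited1 and Muc1 minus the mean log2 intensity of Krt8 and Krt18, in 5 PN1a samples (red, open with a number in the title, filled with a letter) and 6 PN1b samples (blue). The open PN1a samples have the lowest keratins, and relative to the keratins all PN1a samples lie above all PN1b samples in the 3 genes, for Muc1 at -3.70 to -2.65 against -6.28 to -5.08.

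Markers of several cell types were read beside these results, against 0.836% of 8251 genes called higher and 1.84% called lower. Of 12 luminal markers measured 0 were called, with summed intensities of 439 in PN1a 1, 1110 in PN1a 2, 1910 to 2450 in the letter-titled PN1a samples and 1850 to 2710 in PN1b. The luminal keratin Krt19 went the other way from Krt8 and Krt18, at 37.5, 23.4, 347, 326 and 440 in PN1a and 9.99 to 54.2 in PN1b (log2 fold change 2.63, SE 0.75, limma adjusted p = 0.0808), with the letter-titled samples high. Its other probe set was called (3.74, limma adjusted p = 0.0446), and without PN1a 1 and PN1a 2 Krt19 itself was called (4.09, limma adjusted p = 0.000761). Of 10 macrophage markers 3 were higher in PN1a, Cd68, C1qb and Tyrobp, and the list summed to 645 to 1050 in PN1a against 295 to 851 in PN1b, while other probe sets of Cd68 and C1qb were at log2 0.04 and 0.10 and were not called. Without PN1a 1 and PN1a 2 none of the 3 was called, with C1qb at 1.55 (limma adjusted p = 0.189), Cd68 at 1.22 (0.0726) and Tyrobp at 1.57 (0.114). With all samples, all 10 macrophage markers were above 0 by the probe set of highest mean, with a median of 1.22. Other probe sets of Adgre1 and Lyz2 were at -0.07 and -0.23. The lowest Csf1r value of PN1a, 29.2, exceeded the highest of PN1b, 24.4, but Csf1r was not called (log2 1.26, limma adjusted p = 0.0637). The sums include Cd14, the marker with the smallest change (log2 0.20), which reached 709 in PN1a and 676 in PN1b. Of 10 basal and myoepithelial markers 1 was lower, the transcription factor Trp63, with sums of 762 to 1630 and 1230 to 2290. The basal keratin Krt17 was the 1 marker of this list above 0 (log2 1.21, limma adjusted p = 0.156). Without PN1a 1 and PN1a 2 it was called higher (1.99, limma adjusted p = 0.00274). Its other probe sets were at -0.02 and 2.08 with all samples and were not called. Of 8 adipocyte markers 1 was lower, the lipase Lpl, with sums of 63.2 to 189 and 214 to 270. Lpl itself made up 20.4 to 118 and 170 to 229 of these, while 5 of the 8 markers were above 0, with a median of 0.08. Lpl fell by 1.81 on the log2 scale, and by 0.94 without PN1a 1 and PN1a 2, where it was still called, as was Trp63. Without PN1a 2 alone Lpl was not called (-1.51, limma adjusted p = 0.0835). Its other probe set was at -0.66 with all samples (limma adjusted p = 0.439). Markers of lymphocytes (9), fibroblasts (7), endothelium (6) and skeletal muscle (6) had 0 calls by limma. By the probe set of highest mean 2 of the 9 lymphocyte markers were above 0, with a median of -0.43. The study states the removal of lymph nodes for flow cytometry, and not for the arrays. No marker was at the lowest value in every sample, and the part of these cell types in the values of Cited1, Gata3 and Muc1 was not tested.

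Genes around the receptors were taken from lists, with the probe set of highest mean for each gene. Over all 8251 genes the median log2 fold change was -0.03, and 0.836% were called higher and 1.84% lower. Of 17 measured steroid receptor relatives, coregulators and chaperones 0 were called, with a median of -0.05 and a range from -0.74 to 0.66. The smallest adjusted p-values by limma, given after the log2 fold change, were those of the prohibitin Phb2 (0.66, 0.124), Cited2, the paralog of Cited1 (-0.74, 0.202), the Mediator subunit Med1 (0.65, 0.236) and the orphan receptor Esrra (0.32, 0.313). Of 13 estrogen and progesterone response genes 0 were called, with a median of 0.01 and a range from -0.66 to 0.59. Among these, the chemokine Cxcl12 was at -0.66 (limma adjusted p = 0.233), the lysosomal protease Ctsd at 0.59 (0.493) and Myc at -0.57 (0.548). The paracrine mediators of progesterone, Wnt4 and Tnfsf11, were at -0.10 (SE 0.49) and -0.07 (SE 0.22). Tnfsf11 did not exceed 3.81 in any sample, and Wnt4 lay between 1.09 and 9.19. Their signal was not tested against the background of the array. Without PN1a 1 and PN1a 2 Ctsd was at 0.05 (limma adjusted p = 0.967), Myc at 0.3 (0.631) and Wnt4 at 0.26 (0.865). Areg, Greb1, Calca, Egr3 and Igfbp5 were not analysed here.

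Of 19 genes of prolactin, JAK2 and STAT5 signaling 1 was called, Socs2, a feedback inhibitor that STAT5 induces, and the median was -0.22. Socs2 read 17.9, 11.2, 29.0, 38.3 and 37.0 in PN1a and 49.2 to 79.9 in PN1b. It was lower in every PN1a sample than in any PN1b sample (log2 fold change -1.47, SE 0.30, limma adjusted p = 0.0259). The call was lost without PN1a 1 (adjusted p = 0.0606), PN1b 1 (0.0662), PN1b 3 (0.0651) or PN1b 4 (0.0645), and without PN1a 1 and PN1a 2 (log2 -0.95, 0.0540), and with the title ending as a block (-1.39, 0.373). Relative to Krt8 and Krt18 it was -0.15 (adjusted p = 0.819). Cish, another feedback inhibitor of the pathway, was at -0.22 (limma adjusted p = 0.626). The adaptor Shc1 (0.55, 0.193), prolactin itself (Prl, -0.60, 0.234), caveolin Cav1 (-0.57, 0.278) and the growth factor Igf2 (1.23, 0.291) did not pass. Prl did not exceed 3.12 in any sample, and its signal was not tested against the background of the array. Igf2 read 118, 9.65, 181, 125 and 48.8 in PN1a and 20.5 to 48.8 in PN1b, and it was called without PN1a 2 (log2 1.93, limma adjusted p = 0.0174) and without PN1a 1 and PN1a 2 (1.88, 0.0421). Its other probe set was at 0.12 with all samples (limma adjusted p = 0.84).

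Of 14 milk protein and secretory genes 1 was called, Glycam1, a mucin secreted into milk, while 11 of the 14 were above 0 and the median was 0.39. Glycam1 read 1.06, 1.61, 8.46, 22.3 and 22.8 in PN1a against 59.3 to 207 in PN1b, and no values overlapped (log2 fold change -4.16, SE 0.74, limma adjusted p = 0.0109). Without PN1a 1 and PN1a 2 it was -2.71 (adjusted p = 0.00690), and with the title ending as a block -3.59 (adjusted p = 0.351). The part of cell types other than epithelium in the values of Glycam1 was not tested. Of 5 caseins measured 0 passed, and 4 were above 0. Csn3, the kappa-casein gene, read 72.5 to 410 in PN1a and 11.6 to 108 in PN1b (log2 2.10, SE 0.54, limma adjusted p = 0.0583), and Csn1s1 and Csn2 were at 2.72 (0.239) and 1.29 (0.288), Csn1s2a at 0.45 (0.708) and Csn1s2b at -0.21 (0.692). Wap, the whey acidic protein gene, was at 0.33 (limma adjusted p = 0.525). The STAT5 target genes named here included values on both sides of 0.

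Of 24 luminal transcription factors and signaling partners 1 was called, Lmo4, and 7 were above 0, with a median of -0.50. Lmo4 encodes a LIM domain cofactor of luminal cells. It read 117, 89.3, 68.6, 88.0 and 92.4 in PN1a and 136 to 239 in PN1b, lower in every PN1a sample (log2 fold change -1.14, SE 0.20, limma adjusted p = 0.00932), and it remained called with each sample left out in turn and without PN1a 1 and PN1a 2. With the title ending as a block it was -0.89 (adjusted p = 0.337), and relative to Krt8 and Krt18 it was 0.18 (adjusted p = 0.775). The ETS factor Ehf was at -1.34 (limma adjusted p = 0.0588) and lower in every PN1a sample. Notch1 (-0.77, 0.0979) and Notch3 (-0.77, 0.111) did not pass, nor did the ErbB receptor Erbb3 (-1.07, 0.115), whose other probe set was at 0.11. Foxa1, which opens chromatin for the estrogen receptor, was at 0.36 (limma adjusted p = 0.808). It read 2.83, 1.92, 18.8, 17.6 and 23.6 in PN1a 1 to PN1a 5 and 3.03 to 11.2 in PN1b. The letter-titled samples were thus above every PN1b sample. Without PN1a 1 and PN1a 2 Foxa1 was at 1.59 (limma adjusted p = 0.0825) and was not called.

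**Figure D4:**
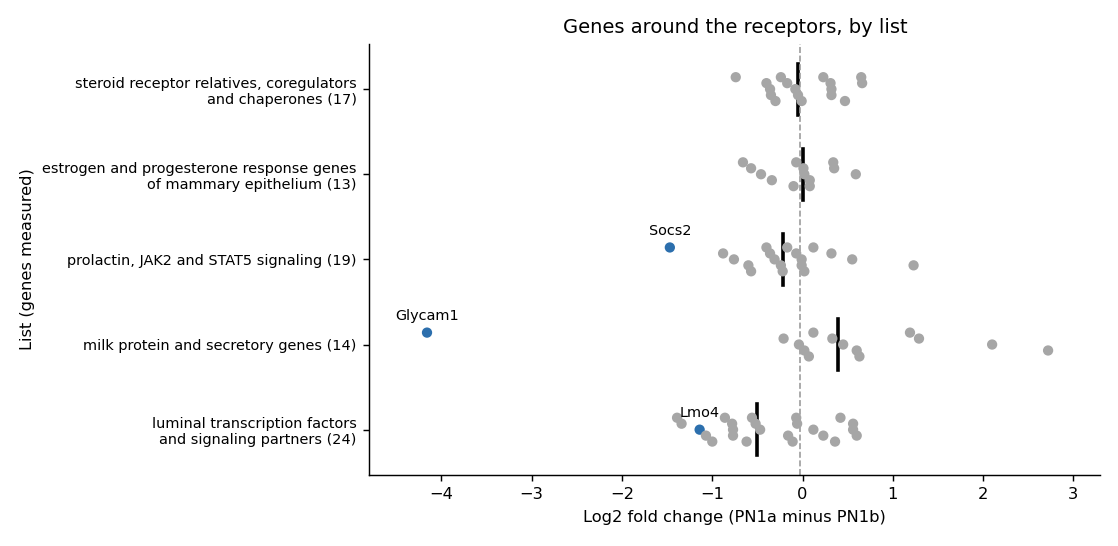
Log2 fold change (PN1a minus PN1b) of the measured genes of 5 lists (points, blue where called), with the median of each list as a black bar and the median of all 8251 genes, -0.03, as a dashed line. The 3 called genes, Socs2 at -1.47, Glycam1 at -4.16 and Lmo4 at -1.14, were all lower in PN1a.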

How the data were processed

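RNA of 5 PN1a and 6 PN1b samples of mammary gland was hybridized to Affymetrix MG_U74Av2 arrays, 1 sample per array. The authors processed the arrays in dChip (PM-MM model, quantile normalization; version not given in the sources used here) and deposited linear intensity values for 12488 probe sets. The quantile normalization makes the arrays comparable only if most probe sets do not change. No scanner files were used, and depth does not apply.

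Log2 was taken with no pseudocount and no filter on low values, and 66 control probe sets were left out. The median intensity per sample was 8.57 to 9.51, and 0.817% of values were at the lowest value. Groups came from the sample labels, and replicate numbers are in accession order and only name samples. Gene names came from the platform annotation of the array, brought up to date through Entrez identifiers in RefSeq GRCm38.p6. Of the tested probe sets 10833 had 1 symbol, 396 several and 1193 none. The groups were compared in R 4.3.3 with limma 3.58.1 (lmFit, eBayes). Motifs, counts and figures were made with Python 3.11.15 and matplotlib 3.10.9. The steps were tested on simulated data.

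The members and lists were chosen with earlier results of these data known, after reading a supplementary table of the study that holds Gata3 and Cited1. Named genes were all members, every called gene of each list, up to 4 others of a list with the smallest adjusted p, and the 5 genes most like Cited1, Esr1 and Pgr. Also named, after their values were seen, were Wnt4, Tnfsf11, Cish, Wap, Csn1s2a, Csn1s2b, Foxa1, Fos, the luminal keratins, Krt17, the called cell type markers and 18S RNA. The report gives part of what the rule names. Correlations used Pearson r over 11 log2 values.

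Alternatives were the methods' t-test, the title ending as a fixed or random block and within the shared ending, quantile normalization repeated, centring on the median or on luminal keratins, a filter at the median, log2(value + 16), a fold threshold of 2, the average over the probe sets of a gene, eBayes with trend and robust, each sample left out in turn, and PN1a 1 and PN1a 2 left out. Log2(value + 1) and centring on Krt8 and Krt18 were added after the data were seen.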

Additional observations from a re-analysis of the deposited data

How the results depend on the processing

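The log2 fold change of Cited1 kept its direction under every alternative run. It missed the threshold at 1.88 with the methods' t-test after Benjamini-Hochberg (adjusted p = 0.0840) and with centring on Krt8, Krt18 and Krt19 (limma adjusted p = 0.577). It also missed at 1.55 with the title ending as a fixed block or within the shared ending, at 1.83 with the ending as a random block (limma adjusted p = 0.0526) and at 0.57 on log2(value + 16) (limma adjusted p = 0.0737). With single samples left out it ran from 1.57 to 2.12, and the adjusted p from 0.0152 to 0.0746. The filter at the median removed Cited1, so no value was had there.

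The number of member probe sets called higher, 1 of 12, was 2 with the methods' t-test at their unadjusted threshold of 0.01 (2.18% of all probe sets), quantile normalization repeated (1.09%), median centring (1.25%), the filter at the median (2.33%), log2(value + 1) (1.21%), and eBayes with trend and robust (1.19%). It was 0 with the t-test after Benjamini-Hochberg (0.403%), the title ending as a fixed block (0.0966%), within the shared ending (0.0483%) and as a random block (0.467%), centring on Krt8, Krt18 and Krt19 (0.177%), and log2(value + 16) (0.523%). It was 8 with centring on Krt8 and Krt18 (38.4%), 3 without PN1a 1 and PN1a 2 (0.684%), and 0 to 2 with single samples left out. The number called lower was 0 under every alternative run. Gata3 was called with quantile normalization repeated (log2 1.51, limma adjusted p = 0.0407), median centring (1.5, 0.0439), the filter (1.44, 0.0368), log2(value + 1) (1.40, 0.0422) and trend and robust (1.44, 0.0414). Muc1 was called with the filter (limma adjusted p = 0.0483). Socs2 and Glycam1 were also not called with the t-test after Benjamini-Hochberg (adjusted p = 0.0700 and 0.0594), and neither Socs2 nor Lmo4 with centring on Krt8, Krt18 and Krt19.

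Among the members, Socs2, Lmo4 and Glycam1, the sign turned in these values, of which Lmo4 had been called and the others had not. With the ending as a fixed block and within the shared ending, Esr1 93945_at was at -0.36, Stat5a 100423_f_at at -0.06, Stat5b at -0.17 and Elf5 at 0.11. Relative to Krt8 and Krt18, Esr1 161113_at was at 1.13, Esr1 93946_at at 1.24, Elf5 at 1.14 and Lmo4 at 0.18. The mean of the probe sets of Esr1 was at 0.16. With single samples left out Elf5 ran from -0.46 to 0.06 (without PN1a 1), Stat5a 100423_f_at from -0.02 (without PN1a 5) to 0.22 and Stat5b from -0.03 (without PN1b 1) to 0.21. The causes were not tested.

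Over all probe sets 108 were called higher and 201 lower. The numbers were 271 and 442 with the methods' t-test at their threshold, 50 and 95 after Benjamini-Hochberg, 12 and 19 with the fixed block, 6 and 12 within the shared ending, 58 and 104 with the random block, and 85 and 82 without PN1a 1 and PN1a 2. No paired analysis was possible because the labels carry no replicate numbers. Probe sets near the lowest value, such as those of Esr1, Pgr, Tnfsf11 and Prl, bound only poorly how far the lines differ.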
